A study of Rattus norvegicus with 2 samples.

Results

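Gfpt2-high fibroblasts were examined in rat carotid arteries. Gfpt2 encodes a glutamine:fructose-6-phosphate amidotransferase, the enzyme that opens the hexosamine pathway. Droplet-based single-cell RNA sequencing (10x Genomics) gave 2 libraries, a control group from untreated left carotid arteries and a case group from right carotid arteries after balloon injury. The arteries were taken 28 days after injury from 2 male rats of the SD (Sprague-Dawley) strain, given as 12 weeks old, and pooled by side, and no allele, transgene or drug is named in the labels. Each group was therefore 1 library, the control artery came from the opposite side of injured animals, and no difference below has a replicate check.

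The control library held 3321 barcodes with 24968329 UMIs and a median of 5981 UMIs per barcode, and the case library 5656 barcodes with 28232614 UMIs and a median of 4778. The barcode suffixes carry no group name and were assigned by the numbers of barcodes that the study's methods give for each group, so every direction between case and control rests on that assignment. Cells with at least 2000 UMIs and at most 20% mitochondrial UMIs were kept, which left 1999 control and 4659 case cells. A kept cell was called a fibroblast when Col1a1, Col3a1, Dcn and Lum together made up at least 1.5% of its UMIs and the smooth muscle genes Acta2, Tagln, Myl9, Myh11, Cnn1 and Cald1 less than 0.5%. Gfpt2-high cells were then chosen by Gfpt2 itself, as the fibroblasts in which it made up at least 0.35% of the UMIs. In all, 347 of 8977 barcodes met the rule, 120 control and 227 case cells, and the comparison class was the 1494 fibroblasts below 0.35%, called Gfpt2-low. The libraries shared 21 barcode sequences, which gave 4 Gfpt2-high cells, and 1 sequence was a fibroblast in both.

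In the hexosamine pathway, fructose-6-phosphate and glutamine are built up to UDP-N-acetylglucosamine, the sugar donor for glycoproteins, proteoglycans and hyaluronan. Hyaluronan is a long sugar chain of alternating N-acetylglucosamine and glucuronic acid, extruded at the plasma membrane by the Has enzymes. Fibroblasts of the artery wall lie mainly in the adventitia, where they make collagen, proteoglycans and hyaluronan and respond to injury.

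The fibroblast markers Dcn and Col1a1 helped to choose these cells, so their presence was fixed by the rule and their levels are a description. A level in CPM is the summed UMI count of a gene in a class, scaled to a class total of 1000000 without Gfpt2. Levels of the proteoglycan gene Dcn were 15739 in control and 13448 in case Gfpt2-high cells, beside 15108 and 12319 in Gfpt2-low cells. Col1a1, which the rule also used, was lower in Gfpt2-high than in Gfpt2-low cells, at 17419 against 19683 CPM in the control library and 10868 against 16844 CPM in the case library. The 4 rule genes summed to 46451 against 53052 and 36659 against 50145 CPM. The PDGF receptor gene Pdgfra, which the rule did not use, was present but lower in Gfpt2-high than in Gfpt2-low cells, at 52.2 against 106.8 CPM in the control library and 55.5 against 120.0 CPM in the case library. Smooth muscle cells, here and below, were kept cells with at least 1.5% of UMIs in the 6 smooth muscle genes. They held at most 0.5% in the 4 fibroblast genes, so a low sum of those genes was fixed by that choice. In smooth muscle cells of the same libraries Pdgfra was at 0.473 and 1.05 CPM, and the 4 rule genes together at 2980 and 2616 CPM.

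Markers of endothelial, immune, mesothelial and adipose cells were at or near 0 in Gfpt2-high cells. The 7 listed endothelial genes summed to 1.67 CPM in the control and 4.62 CPM in the case library. Cdh5, a defining gene of that list, was at 0.555 and 0 CPM, and Kdr at 0 and 3.47 CPM. The 8 macrophage genes summed to 6.11 and 11.6 CPM, with Cd68, the most abundant, at 3.33 and 4.62 CPM and Ptprc at 0 in both. All 4 listed T cell genes were at 0, where 3 UMIs would have been 1.67 CPM in the control and 1.73 CPM in the case library. The 5 Schwann cell genes summed to 35.5 and 45.7 CPM, nearly all of it S100b, below the 83.2 and 108.0 CPM of Gfpt2-low cells. The 6 smooth muscle genes of the rule summed to 637 and 714 CPM, and their part in the results was not tested. The 5 pericyte genes summed to 222.7 and 226.0 CPM through Abcc9, the 6 mesothelial genes to 1.67 and 5.78 CPM, the 4 adipocyte genes to 0.555 and 0 CPM, and the 4 perineurial genes to 66.6 and 112.7 CPM through the glucose carrier Slc2a1.

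Gfpt2-high cells made up 120 of 667 control fibroblasts, or 17.99% (95% Clopper-Pearson interval 15.1 to 21.1), and 227 of 1174 case fibroblasts, or 19.3% (17.1 to 21.7). The intervals overlapped and cover counting error only. The direction depended on the rule: among cells with at least 4000 UMIs the shares were 18.6% (15.7 to 21.8) in the control and 24.1% (21.3 to 26.98) in the case library, and with the 4 fibroblast genes at 3% or more they were 15.7% and 14.9%. As a share of all kept cells they were 6.003% of the control and 4.87% of the case library. Gfpt2 chose these cells, so its level is a description: the median was 0.534% of UMIs in control and 0.585% in case Gfpt2-high cells, with highest values of 1.29% and 2.06%. The class had no gap at its edge. The lowest cells inside held 0.353% and 0.351% and the highest outside 0.3492% and 0.3497%, and 83 control and 133 case fibroblasts lay between 0.25% and 0.45%. No Gfpt2 UMI was found in 20.7% of control and 25.9% of case fibroblasts, while Gfpt2 in smooth muscle cells was at 13.3 and 18.1 CPM. High Gfpt2 was not confined to fibroblasts. In kept cells called neither fibroblast nor smooth muscle the median share was 0, but the highest was 1.24% in the control and 1.96% in the case library.

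Gfpt2-high cells held more RNA counts and fewer transcripts of the immediate early and heat shock genes than Gfpt2-low cells of the same library. Their median was 15245 against 10677 UMIs in the control library and 7148 against 5173 UMIs in the case library. The 24 immediate early and 9 heat shock genes of the lists together took a median of 1.80% of UMIs in control Gfpt2-high and 4.23% in control Gfpt2-low cells, and 1.62% against 4.40% in the case library. Such genes are known to be induced quickly in stressed cells. Ordered by the share of these genes, 44.7% of the control fibroblasts below 2% were Gfpt2-high (36.8 to 52.7), and 47.9% of the case fibroblasts (42.1 to 53.6). At 6% or more, 0 of 166 control fibroblasts (upper 95% limit 2.20%) and 2 of 304 case fibroblasts were. Gfpt2-high cells were thus concentrated where the stress genes were low in both libraries.

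**Figure D1:**
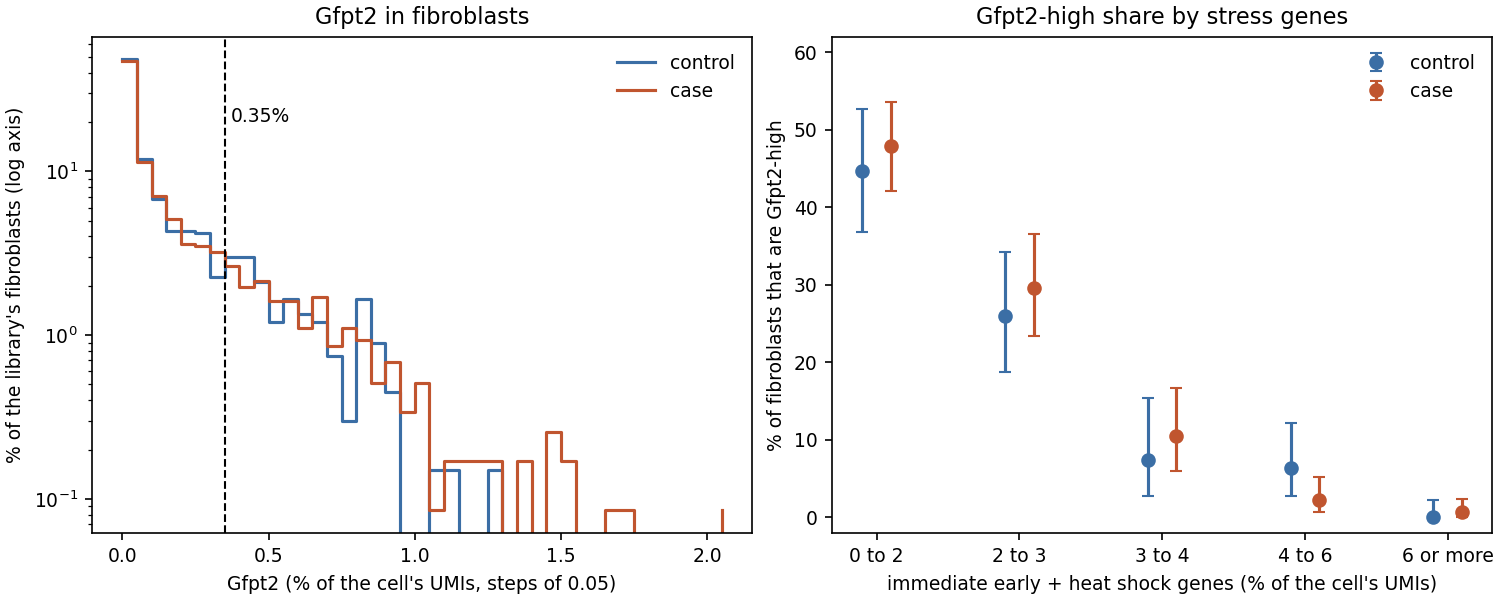
Left, the share of each library's fibroblasts (%, log axis) in steps of 0.05% of Gfpt2 UMIs, with the 0.35% threshold dashed; both libraries have fibroblasts in every step next to the threshold, with no gap. Right, the share of fibroblasts that are Gfpt2-high (%, bars are 95% Clopper-Pearson intervals) by the share of immediate early and heat shock genes; it is 44.7% and 47.9% below 2% and near 0 at 6% or more.

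The first comparison asked which genes differ between Gfpt2-high and Gfpt2-low fibroblasts, gene by gene within each library. After a level filter, a mean over the 4 class sums of 100 CPM or more, 1337 genes were compared, and these are the tested genes below. No p-value is given, since the classes were cut from the expression of the same cells. Of these 70 (5.24%) were at least 2-fold higher in Gfpt2-high cells in both libraries and 51 (3.81%) at least 2-fold lower. In the control library alone 86 (6.43%) were higher and 66 (4.94%) lower, and in the case library 96 (7.18%) and 67 (5.01%). The median log2 ratio over all 1337 genes was 0.08 in the control and 0.15 in the case library. Counting any size of difference, 52.5% of the 1337 genes were higher in both libraries and 35.9% lower. The sign was the same in both libraries for 1182 genes, and across genes, which are not independent replicates, Spearman's rho was 0.92. Of the 70 higher genes 21 had a mean under 100 CPM in Gfpt2-low cells and so reached the filter only through the class where they are high, among them Has2, Cd55, Slc7a11, Cxcl3, Trib3, Shmt2, Aars and Yars, and 21 of the 51 lower genes had a mean under 100 CPM in Gfpt2-high cells. Counts over tested members of a list include such genes, and stand beside the 5.24% higher and 3.81% lower of all tested genes. All 95% intervals of ratios cover counting error only.

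**Figure D2:**
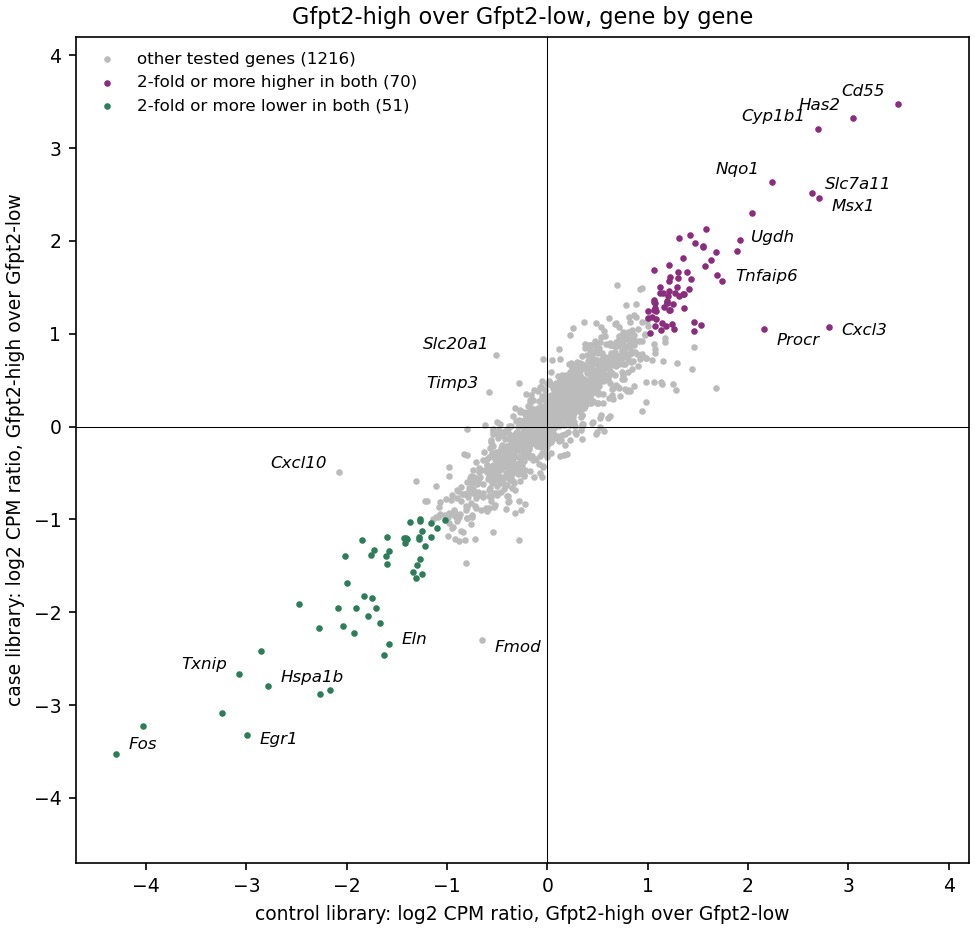
Each point is a gene; the axes give its log2 CPM ratio of Gfpt2-high over Gfpt2-low cells in the control (x) and case (y) library. The 70 genes at least 2-fold higher in both lie at upper right with Cd55, Has2 and Cyp1b1 at the end, and the 51 lower genes at lower left with Fos at the end.

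Genes for making hyaluronan were higher in Gfpt2-high cells. Has2, a hyaluronan synthase, was at 449.3 CPM in control Gfpt2-high and 54.3 CPM in control Gfpt2-low cells, and at 528.8 against 52.8 CPM in the case library, log2 ratios of 3.05 (95% interval 2.86 to 3.24) and 3.32 (3.13 to 3.52). Both high classes thus stood far above both low classes, with smooth muscle cells at 0.379 and 0.479 CPM. Ugdh, which makes the UDP-glucuronic acid that hyaluronan synthases use, was at 5245 against 1414 CPM in the control and 4331 against 1163 CPM in the case library. Ugp2, which makes UDP-glucose for Ugdh, was at 329.9 against 136.9 and 322.5 against 118.7 CPM. The synthase Has1 did not follow: its log2 ratio was 0.08 in the control and 0.47 in the case library. Of the 5 listed genes of hyaluronan synthesis 4 were tested, and 3 were at least 2-fold higher in both libraries, of which Has2 reached the level filter only through its Gfpt2-high cells.

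Within the hexosamine pathway the rest of the chain did not move as a block. Uap1, the last enzyme before UDP-N-acetylglucosamine, was at 3822 against 1141 CPM in the control and 1752 against 592.3 CPM in the case library, log2 ratios of 1.74 and 1.57. Gnpnat1, the acetyltransferase of the pathway, was at 169.4 against 31.5 and 78.0 against 25.3 CPM, below the level filter in its mean. Gfpt1, the paralogue of Gfpt2 with the same reaction, was at 249.4 against 234.1 CPM and 281.5 against 272.4 CPM, log2 ratios of 0.09 and 0.05. Pgm3, the mutase between Gnpnat1 and Uap1, was at 22.2 against 23.7 and 22.5 against 22.1 CPM. Of the 12 listed genes only Uap1 and Gfpt1 reached the filter, and Uap1 alone passed 2-fold in both libraries.

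Among proteins that bind hyaluronan, Tnfaip6 was higher in Gfpt2-high cells. This secreted protein transfers heavy chains onto hyaluronan, and it was at 12324 against 3985 CPM in the control and 7499 against 2168 CPM in the case library, log2 ratios of 1.63 and 1.79. The proteoglycan Vcan was at 750.3 against 363.4 and 684.9 against 417.0 CPM, and the receptor Cd44 at 377.1 against 251.2 and 967.5 against 521.1 CPM. Of the 12 listed genes that bind or break down hyaluronan 3 were tested, and Tnfaip6 alone was higher by 2-fold or more in both libraries. Adamts4, a protease that cuts versican and aggrecan, was at 1461 against 632.0 and 1527 against 515.7 CPM.

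Cd55 had the largest ratio of the tested genes. This gene, which encodes a surface inhibitor of complement, was at 455.4 against 40.5 CPM in the control and 495.3 against 44.6 CPM in the case library, log2 ratios of 3.49 and 3.47. Cyp1b1, a cytochrome P450, was at 1497 against 231.2 and 1788 against 193.6 CPM. Msx1, a homeobox factor, was at 299.4 against 45.7 and 258.4 against 47.0 CPM, and in smooth muscle cells at 46.4 and 38.1 CPM, close to Gfpt2-low fibroblasts. The secreted protease Htra3 had log2 ratios of 2.04 and 2.30, the lipid droplet coat gene Plin2 1.68 and 1.88, and the secreted factor Metrnl 1.57 and 1.73.

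Thbd and Procr, anticoagulant genes of the cell surface, were higher. Thbd, thrombomodulin, which turns thrombin toward activation of protein C, was at 1045 against 322.7 CPM in the control and 889.5 against 286.6 CPM in the case library. Procr, the endothelial protein C receptor, was at 1086 against 242.9 and 382.0 against 183.8 CPM, so its ratio was smaller in the case library (log2 1.06) than in the control library (2.16). The clotting initiator F3, tissue factor, was lower, at 336.6 against 800.7 and 303.4 against 659.5 CPM. Tfpi2, a protease inhibitor and the most abundant gene of this list, was at 1549 against 956.5 and 2476 against 859.3 CPM. Of the 6 genes of this list, drawn up after these values were seen, 4 were tested, Thbd and Procr passed 2-fold upward in both libraries and F3 downward. Endothelial genes were near 0 in these cells, as given above.

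Genes of glutathione and redox defence, many of them known targets of the factor Nrf2, were higher. Slc7a11, the cystine importer, was at 221.1 against 35.4 CPM in the control and 299.4 against 52.2 CPM in the case library. Nqo1, a quinone reductase, was at 873.1 against 185.3 and 1148 against 184.7 CPM. Gclc, the catalytic subunit of the first step of glutathione synthesis, was at 706.5 against 186.8 and 581.4 against 144.0 CPM. Haem oxygenase Hmox1 had log2 ratios of 1.22 and 1.26 and thioredoxin reductase Txnrd1 of 1.35 and 1.43. Of the 13 listed antioxidant and metallothionein genes 10 were tested, 5, with Slc7a11 that reached the filter only through Gfpt2-high cells, were at least 2-fold higher in both libraries and none 2-fold lower. Gpx3, a secreted peroxidase, had log2 ratios of -0.49 and -0.39 and Sod3, an extracellular dismutase, of -0.12 and -0.11. Among fibroblasts with under 2% of stress gene UMIs 3 of the 5, Slc7a11, Nqo1 and Gclc, stayed at 2-fold or more in both libraries.

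Genes that charge transfer RNA and supply amino acids were higher together. Nars, the asparaginyl-tRNA synthetase, which charges transfer RNA with asparagine, was at 1804 against 735.2 CPM in the control and 2545 against 896.7 CPM in the case library. Of 20 listed aminoacyl-tRNA synthetase genes 9 were tested, 8 were higher by 2-fold or more in both libraries, with 4 of the 9 passing the level filter only through their Gfpt2-high cells. This list, like those of serine and one-carbon enzymes and of amino acid carriers, was drawn up after these values were seen. The serine enzymes Psph (1.39 and 1.66), Shmt2 (1.59 and 2.13) and Mthfd2 (1.01 and 1.25, all log2 ratios) were the 3 tested of 8, and of 6 tested carriers of 10 listed, Slc7a1, Slc7a5 and Slc7a11 passed 2-fold in both libraries. Chac1, which breaks down glutathione and is known as a target of ATF4, was at 449.3 against 180.8 and 698.8 against 171.3 CPM, and Trib3, another such target, at 239.4 against 93.5 and 152.6 against 43.3 CPM. The transcripts of Atf4 (log2 ratios -0.30 and -0.21) and Ddit3 (-0.04 and -0.10) were below 2-fold. Among fibroblasts with under 2% of UMIs in immediate early and heat shock genes (described further below), none of the 8 synthetases, none of the 3 serine enzymes, neither Chac1 nor Trib3 and, of the 3 carriers, Slc7a11 alone stayed at 2-fold or more in both libraries. Log2 ratios there were 0.57 in the control and 1.03 in the case library for Aars, 0.58 and 1.44 for Cars, and 0.49 and 1.36 for Chac1. Aars, Cars and Chac1 were thus below 2-fold in the control library only.

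The promoters of the called genes were read for short motifs, since ATF4 acts through amino acid response elements, Nrf2 through antioxidant response elements and heat shock factor through heat shock elements. Sequences from RefSeq (build GRCr8), 250 bases before to 50 after the first listed start of each gene, were matched by symbol to 53 of the 70 higher and 35 of the 51 lower genes. Both strands were searched for TGATGNAA (amino acid response element), TGACNNNGC (antioxidant response element), GAANNTTC (heat shock element), TGANTCA (AP-1) and CACGTG (E-box), where an AP-1 match can lie inside an antioxidant match. TGATGNAA lay in 11 of the 53 promoters (20.8%), beside 3.82% of all 27457 promoters of the table and 3.38% of the 1036 matched promoters of tested genes, and in 1 of the 35 promoters of lower genes (2.86%). The 11 were those of Aars, Cars, Nars, Tars, Yars, Slc7a1, Chac1, Trib3, Ugp2, Ftl1 and LOC100360087. The motifs were chosen with these genes known to be higher, so the share is a description and no separate support. Aars, Yars and Trib3 reached the level filter only through their Gfpt2-high cells. Among fibroblasts with under 2% of stress gene UMIs, none of these synthetases, nor Slc7a1, Chac1 or Trib3, stayed past 2-fold in both libraries. TGACNNNGC, found in 12.2% of all promoters, lay in 18.9% of the promoters of higher genes, close to the 17.6% of tested genes. GAANNTTC lay in 1.89% of the higher and 17.1% of the lower genes (Dnajb1, Eif4a2, Hes1, Hspb1, Hspe1 and Hsph1), beside 7.14% of tested genes and 8.34% of all promoters. TGANTCA lay in 5.66% of the higher, 5.71% of the lower and 6.27% of tested genes (7.33% of all promoters), and CACGTG in 16.98%, 14.3% and 10.2% (6.65% of all promoters). A match is a run of letters, not a bound site. Promoters of Cars, Chac1 and Slc7a1 are shown for the amino acid element, of Ugdh for the antioxidant element and of Hspb1, a lower gene, for the heat shock element, each 5′ to 3′ with the match in capitals.
They lie at chr1:208225320-208225619 (minus strand, Cars), chr3:126795881-126796180 (plus strand, Chac1), chr12:11664238-11664537 (plus strand, Slc7a1), chr14:43202268-43202567 (plus strand, Ugdh), and chr12:26432252-26432551 (minus strand, Hspb1).
Cars: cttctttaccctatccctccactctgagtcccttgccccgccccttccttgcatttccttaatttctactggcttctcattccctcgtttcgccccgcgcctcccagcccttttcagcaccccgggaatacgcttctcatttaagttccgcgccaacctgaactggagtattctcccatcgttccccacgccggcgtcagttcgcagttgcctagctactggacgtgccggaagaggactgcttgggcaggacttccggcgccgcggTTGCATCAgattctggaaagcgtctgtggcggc
Chac1: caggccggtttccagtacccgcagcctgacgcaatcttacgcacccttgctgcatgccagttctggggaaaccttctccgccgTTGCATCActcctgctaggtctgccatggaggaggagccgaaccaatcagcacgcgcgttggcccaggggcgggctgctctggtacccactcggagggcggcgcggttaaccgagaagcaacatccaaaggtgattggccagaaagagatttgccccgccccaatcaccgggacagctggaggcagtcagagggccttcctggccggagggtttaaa
Slc7a1: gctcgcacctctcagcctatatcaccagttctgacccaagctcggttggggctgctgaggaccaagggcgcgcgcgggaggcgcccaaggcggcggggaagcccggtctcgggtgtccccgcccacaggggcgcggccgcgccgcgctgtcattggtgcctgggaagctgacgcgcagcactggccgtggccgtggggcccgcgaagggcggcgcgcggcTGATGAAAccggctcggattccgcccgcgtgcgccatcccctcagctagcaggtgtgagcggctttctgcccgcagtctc
Ugdh: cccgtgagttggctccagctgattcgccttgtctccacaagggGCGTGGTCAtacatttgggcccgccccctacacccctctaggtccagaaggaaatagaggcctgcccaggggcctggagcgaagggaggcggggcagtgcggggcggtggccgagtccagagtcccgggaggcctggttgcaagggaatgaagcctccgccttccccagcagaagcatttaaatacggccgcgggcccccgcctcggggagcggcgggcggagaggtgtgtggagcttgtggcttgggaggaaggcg
Hspb1: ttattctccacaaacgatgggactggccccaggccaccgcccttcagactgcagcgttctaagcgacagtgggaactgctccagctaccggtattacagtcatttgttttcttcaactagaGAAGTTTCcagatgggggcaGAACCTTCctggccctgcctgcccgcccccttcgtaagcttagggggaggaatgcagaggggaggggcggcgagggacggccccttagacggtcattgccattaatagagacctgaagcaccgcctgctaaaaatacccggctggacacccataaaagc
Counted from the start of the gene, with the first transcribed base as 0, the first base of the match lay at 17 in Cars, -167 in Chac1, -30 in Slc7a1 and -207 in Ugdh, and the 2 matches of Hspb1 at -129 and -109.

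Inflammatory mediators were higher in part. Ptgs2, the inducible cyclooxygenase, was at 7389 against 3530 CPM in the control and 5883 against 2327 CPM in the case library. Ptges, the prostaglandin E synthase that acts after it, was at 104.4 against 4.39 and 81.5 against 10.2 CPM, below the level filter in its mean. The neutrophil chemokine Cxcl1 was at 6053 against 2873 and 2994 against 1414 CPM and the cytokine Il6 at 1560 against 739.1 and 994.1 against 411.1 CPM. The related Cxcl3 had log2 ratios of 2.81 and 1.07, and the interferon-induced chemokine Cxcl10 was lower, at 57.2 against 241.4 CPM in the control and 112.7 against 158.1 CPM in the case library. The monocyte chemokine Ccl2 passed 2-fold in the control library only (log2 1.15 and 0.46). Of 17 listed chemokines 5 were tested and 2 passed 2-fold upward in both libraries, of 28 cytokines and growth factors 9 were tested with Il6 higher and Hbegf lower, and of 12 NF-kB feedback genes 5 were tested with none past 2-fold in both. Over all tested genes 5.24% were higher and 3.81% lower, so 1 gene of a list is no result about that list. None of Cxcl1, Cxcl3, Il6 and Ptgs2 stayed at 2-fold or more in both libraries among fibroblasts with under 2% of stress gene UMIs.

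Immediate early and heat shock genes were among the most strongly lower genes. Fos was at 98.9 CPM in control Gfpt2-high and 1940 CPM in control Gfpt2-low cells, and at 163.0 against 1874 CPM in the case library, log2 ratios of -4.29 and -3.52, the largest of the lower genes. Vault, which encodes a small non-coding RNA, came next (-4.03 and -3.23), and then Fosb (-3.24 and -3.09). Egr1 was at 234.4 against 1865 and 266.4 against 2674 CPM. Hspa1b, the inducible Hsp70, was at 1453 against 10023 and 1907 against 13207 CPM. Gfpt2-low fibroblasts were near smooth muscle cells for Fos (2484 and 2534 CPM) and above them for Hspa1b (2509 and 2874 CPM). Also lower were Txnip (log2 -3.07 and -2.66), an inhibitor of thioredoxin, and the growth arrest gene Btg2 (-2.85 and -2.42). The other named genes were the factors Jun (-1.93 and -2.22), Irf1 (-2.28 and -2.17) and Id3 (-2.03 and -2.14), Gadd45g (-2.17 and -2.84), Gadd45b (-1.91 and -1.95), the small heat shock gene Hspb1 (-2.09 and -1.95) and Pycard (-2.47 and -1.91). Of 20 tested immediate early genes 6 were at least 2-fold lower in both libraries and 1, Fosl1, higher (log2 1.20 and 1.33), and of 8 tested heat shock genes 5 were lower.

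Matrix genes beyond hyaluronan were mostly level or lower. Eln, elastin, was at 597.1 against 1778 CPM in the control and 214.4 against 1085 CPM in the case library, and Ccn2, a matricellular protein induced by TGF-beta and by stretch, at 65.5 against 315.4 and 57.2 against 422.4 CPM. Ccn1 (log2 -1.25 and -1.59) and Ccn5 (-1.41 and -1.26) were lower too, which made 3 of 7 tested matricellular genes. The TGF-beta feedback genes Smad7 (-1.28 and -1.21) and Skil (-1.41 and -1.20) were the 2 lower of 6 tested in that list. Neither stayed at 2-fold or more in both libraries among fibroblasts with under 2% of stress gene UMIs. Alpl, alkaline phosphatase, was at 153.8 against 477.2 and 39.3 against 216.3 CPM, and Pdgfrb at 86.1 against 209.4 and 100.0 against 228.6 CPM. Of 6 tested collagens Col4a1, of basement membranes, was higher (log2 1.06 and 1.26) and none was 2-fold lower. None of 6 tested small proteoglycans passed 2-fold in both libraries, with medians of -0.63 and -0.91. The adventitial progenitor marker Pi16 had log2 ratios of 0.27 and 0.15, and of the 7 tested genes of that list Cd55, which reached the filter only through its Gfpt2-high cells, alone passed 2-fold. These counts stand beside 5.24% higher and 3.81% lower of all tested genes, so 1 gene of a list is no result about that list.

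Because the stress genes moved with the class, the ratios were computed again from the cells with under 2% of UMIs in immediate early and heat shock genes, a limit chosen after seeing the data. This kept 71 of 120 control and 146 of 227 case Gfpt2-high cells, and 88 of 547 and 159 of 947 Gfpt2-low cells. These cells are part of those in which the genes had been called higher or lower. A kept sign is therefore a description and no separate check. All 70 higher genes kept their sign in both libraries, 17 of them at 2-fold or more, and their median log2 ratios went from 1.30 to 0.69 in the control and from 1.44 to 1.03 in the case library. Of the 51 lower genes 11 belong to the sum that chose these cells, so their smaller ratios were fixed by that choice. Of the other 40 lower genes 35 kept their sign and 13 stayed at 2-fold or more. Eln, Ccn2, Ccn5, Pdgfrb and Dkk3 were among the 13, whereas Smad7, Skil, F3, Hbegf, Irf1 and Ccn1 were not. The choice also moved Gfpt2 itself in Gfpt2-low cells, from a median of 0.0314% to 0.102% of UMIs in the control and from 0.0349% to 0.0606% in the case library, and its part in the smaller ratios was not tested. Has2 (2.98 and 2.88), Cd55 (3.14 and 3.47), Ugdh (1.70 and 1.85), Htra3 (1.85 and 2.07) and Thbd (2.51 and 1.89) stayed past 2-fold in both libraries on the log2 scale. Cyp1b1 (2.72 and 2.34) did too, with a smaller case ratio than the 3.21 over all cells. Nars (0.60 and 0.80), Eprs (0.59 and 0.88), Trib3 (0.51 and 0.61), Txnrd1 (0.59 and 0.80) and Hmox1 (0.68 and 0.89) did not stay past it, and Slc7a11 (1.79 and 1.40), Nqo1 (1.25 and 1.81) and Gclc (1.10 and 1.52) did with smaller ratios. Uap1 (0.93 and 1.45), Adamts4 (0.48 and 1.27) and Cd44 (-0.02 and 1.02) were smaller in the control library. All 3 called genes of hyaluronan synthesis stayed at 2-fold or more in both libraries, Ugp2 only just so in the control library (log2 1.00), whereas Uap1, Adamts4, Cxcl1, Cxcl3, Il6, Ptgs2 and Col4a1 did not. Hspb1 went to -0.11 and -0.58. The ratios of Has2, Cd55, Ugdh and Thbd thus stayed past 2-fold among low-stress cells, as did those of Slc7a11, Nqo1 and Gclc. Those of Nars, Eprs, Trib3, Txnrd1 and Hmox1 were below 2-fold there in both libraries.

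**Figure D3:**
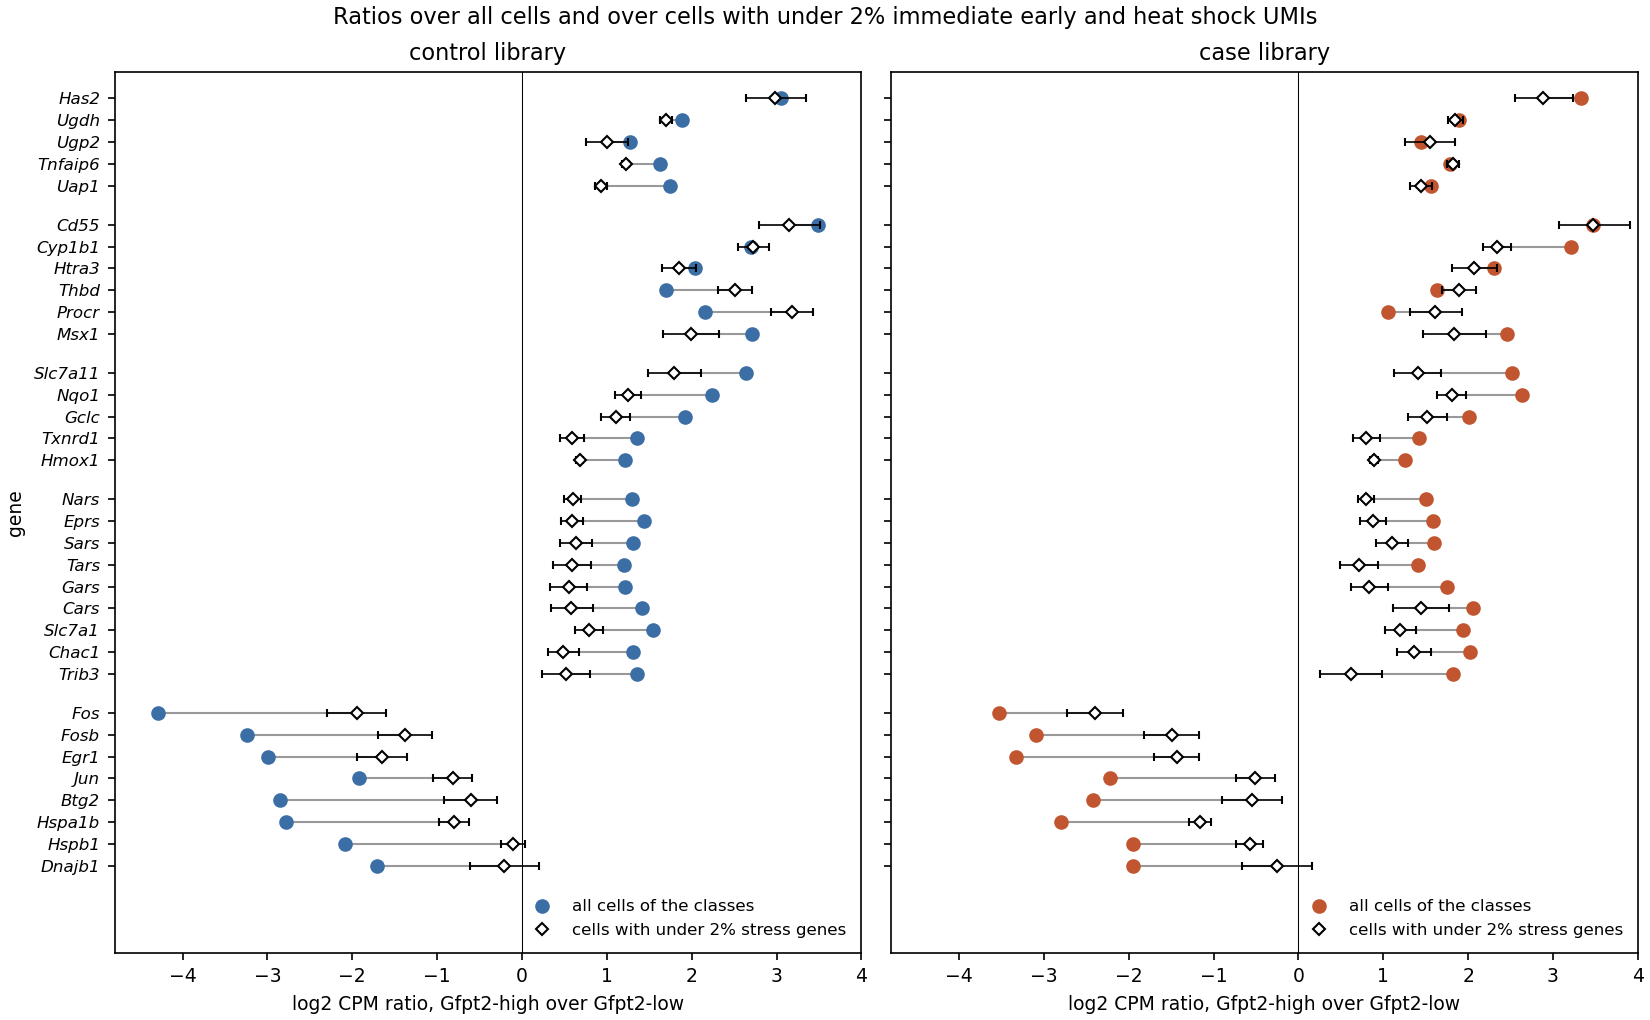
Log2 CPM ratios of Gfpt2-high over Gfpt2-low cells for 33 genes in each library, over all cells of the classes (filled) and over cells with under 2% immediate early and heat shock UMIs (open, bars are 95% counting intervals). Has2 and Cd55 stay near 3, Nars and Eprs lie below 1 when open, and the stress genes move toward 0.

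Levels differed along Gfpt2 in steps, and not for every gene at the same place. Fibroblasts were split at 0.05%, 0.15%, 0.35% and 0.6% of Gfpt2 UMIs. Has2 was at 40.2, 48.8, 88.1, 150.2 and 902.8 CPM along these steps in the control library and at 41.8, 54.5, 74.9, 307.2 and 772.0 CPM in the case library. Cd55 was at 20.4, 52.0, 69.2, 129.0 and 950.3 CPM in the control and at 22.7, 56.0, 80.4, 142.5 and 882.3 CPM in the case library. Both were thus high mainly in the 47 control and 110 case cells at 0.6% or more. Eprs was at 222.6, 398.8, 734.4, 1066 and 1068 CPM in the control library, level over the last 2 steps, and at 176.3, 316.8, 661.1, 856.3 and 1110 CPM in the case library, where it was higher at the last step too. Uap1 was at 534.8, 1225, 2278, 3078 and 4951 CPM in the control library and lower at every step in the case library. Fos was already low at the third step, with 3206, 1093, 243.5, 94.9 and 104.8 CPM in the control library.

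**Figure D4:**
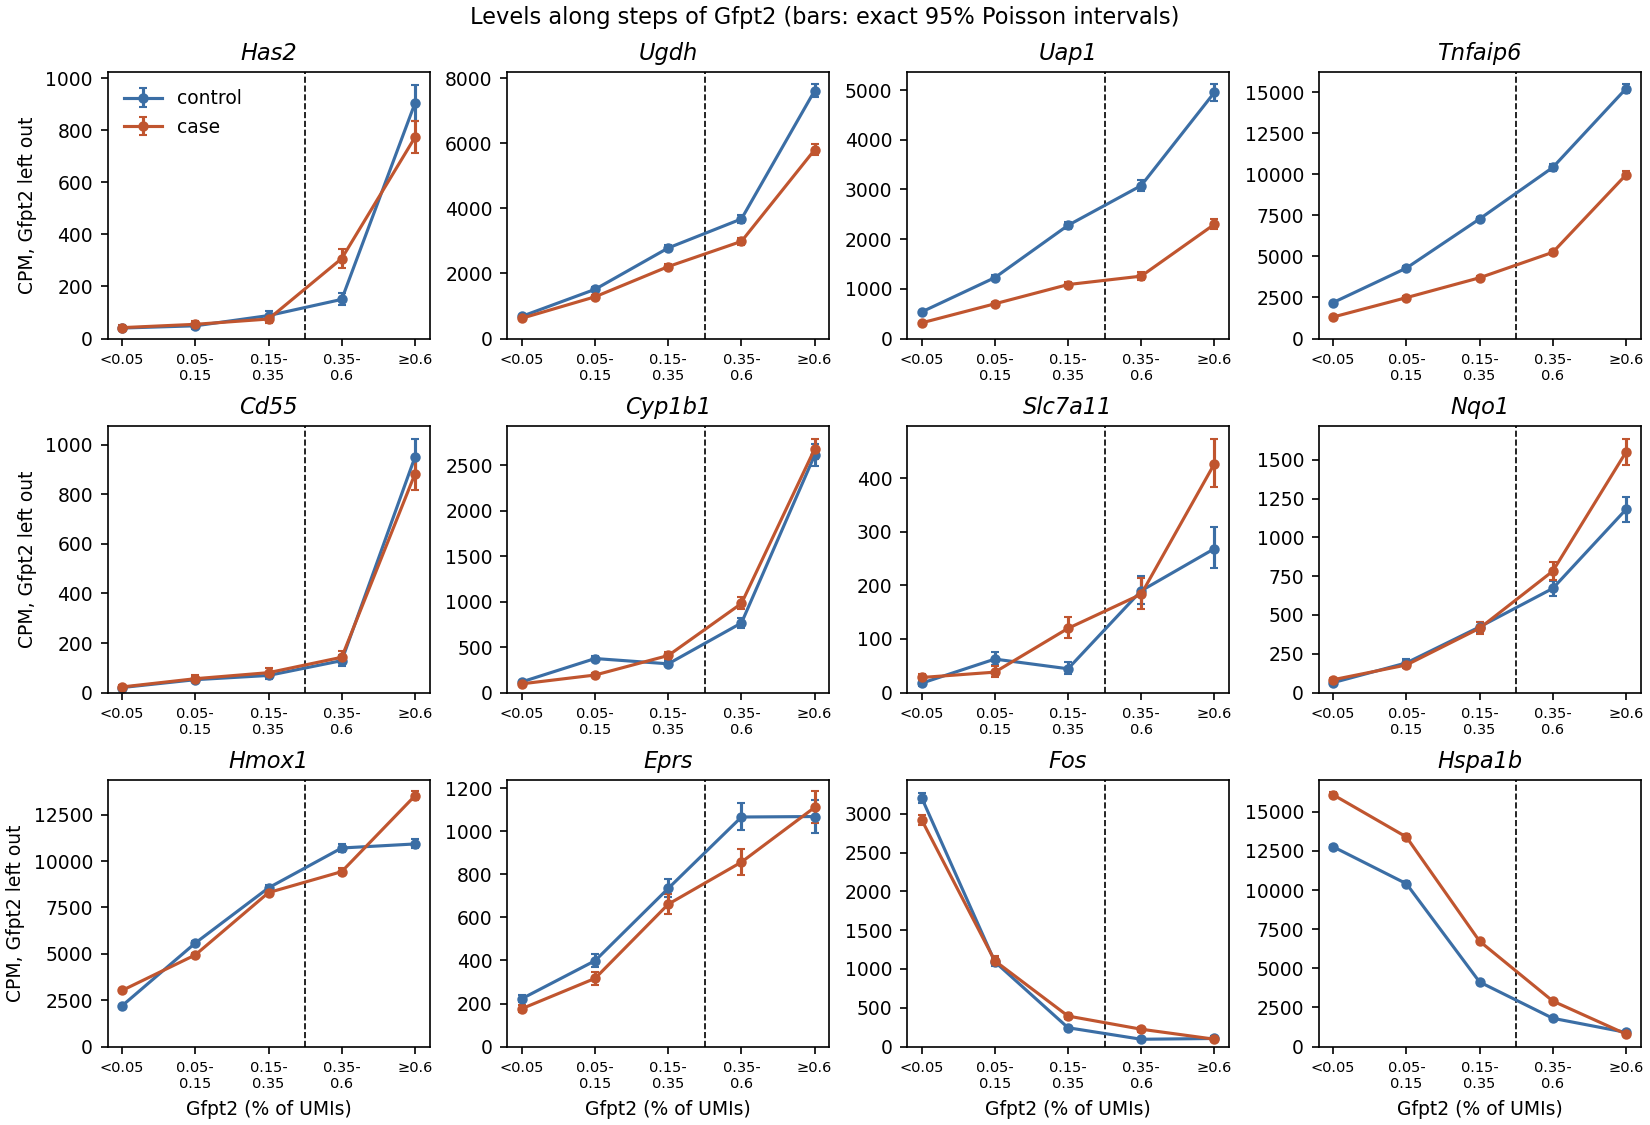
CPM (Gfpt2 left out of the total) of 12 genes along 5 steps of Gfpt2, in % of a cell's UMIs, for the control and case library, with exact 95% Poisson intervals and the 0.35% threshold dashed. Has2, Cd55, Ugdh, Uap1 and Tnfaip6 climb at every step, with Has2 and Cd55 gaining most CPM at the last. Fos and Hspa1b are high at the left and low at the right.

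Cell by cell the signal was spread unevenly. With each cell thinned to 2000 UMIs, Has2 was found in 33.3% of control and 29.5% of case Gfpt2-high cells, in 6.22% and 6.12% of Gfpt2-low cells and in 0.126% and 0.0587% of smooth muscle cells (median 13067 and 5728 UMIs before thinning). Without thinning the shares were 49.2% and 41.9% of Gfpt2-high and 17.7% and 13.8% of Gfpt2-low cells. Tnfaip6 was found at 2000 UMIs in 100% and 98.2% of Gfpt2-high cells, and in 86.1% and 77.0% of Gfpt2-low cells. Msx1 was found in 26.7% and 22.9% of Gfpt2-high but also in 8.18% and 7.21% of smooth muscle cells, beside 5.48% and 6.23% of Gfpt2-low cells, so no expression in Gfpt2-low cells is read from that share. Of 9 genes taken from those with the largest ratios in these same cells, so that a lower share in Gfpt2-low cells was fixed by the choice, at least 5 (of Has2, Ugdh, Uap1, Tnfaip6, Cd55, Cyp1b1, Slc7a11, Nqo1 and Gclc) were found together in 69.2% of control and 70.5% of case Gfpt2-high cells, against 13.9% and 10.1% of Gfpt2-low cells, and in 1 control smooth muscle cell of 795 and 0 of 1705 in the case library (upper limit 0.216%).

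The second comparison set case against control within Gfpt2-high cells, to ask what differed in the injured artery. Of the 1337 genes 21 (1.57%) were at least 2-fold higher in the case library and 53 (3.96%) lower, beside 22 (1.65%) and 42 (3.14%) in Gfpt2-low cells. Of these 74 genes of Gfpt2-high cells 72 had the same sign in Gfpt2-low cells, beside 82.9% of all tested genes. The count in Gfpt2-high cells depended on depth and on the cells used. After thinning to 2000 UMIs 48 genes were higher and 68 lower, and among low-stress cells 37 and 64. Both classes come from the same libraries, so their case over control ratios share whatever differs between the libraries. Library and injury cannot be told apart in this comparison.

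Postn, periostin, a matricellular protein of injured tissue, was at 16.1 CPM in control and 332.9 CPM in case Gfpt2-high cells, and at 14.6 and 289.3 CPM in Gfpt2-low cells, log2 ratios of 4.37 (95% interval 3.83 to 4.96) and 4.31. It was found at 2000 UMIs in 2.5% of control and 16.3% of case Gfpt2-high cells, in 3.11% and 14.3% of Gfpt2-low cells and in 21.8% and 20.1% of smooth muscle cells (median 13067 and 5728 UMIs before thinning). Smooth muscle cells held Postn at 184.9 and 168.0 CPM, and no expression per cell is read from these shares. Slc20a1, a phosphate carrier, was at 244.9 and 904.5 CPM in Gfpt2-high and at 349.7 and 529.4 CPM in Gfpt2-low cells. Angptl1, a secreted angiopoietin-like protein, was at 62.2 and 221.9 CPM and Cd44 at 377.1 and 967.5 CPM. Gfpt2-low cells held Angptl1 at 132.5 CPM in the control and 437.5 CPM in the case library. Il1rl1, the receptor of IL-33, lay below the level filter, at 28.3 and 232.9 CPM in Gfpt2-high and 0.488 and 43.9 CPM in Gfpt2-low cells, with UMIs in 15.9% of case and 1.67% of control Gfpt2-high cells without thinning.

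The higher genes also held Pycard (log2 2.24), an inflammasome adaptor, Vault (1.91) and Mt-atp8 (1.47), which were lower in Gfpt2-high than in Gfpt2-low cells of both libraries, and 4 features that share sequence with copies or carry only a clone name, AABR07057190.1 (2.93), Rps27a (1.69), LOC100362366 (1.57) and LOC100362149 (1.56). Their counts are uncertain, since the counting may split reads between near-identical copies. All 7 were higher in the case library in smooth muscle cells too. There Pycard was at 131.9 CPM in control and 296.6 CPM in case cells, Vault at 37.7 and 101.8 CPM, and Mt-atp8 at 202.9 and 598.2 CPM. The other 4 were at 27.9 and 180.3 (AABR07057190.1), 665.0 and 1976 (Rps27a), 630.6 and 1842 (LOC100362366) and 476.9 and 1387 CPM (LOC100362149).

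Among the lower genes Alpl was at 153.8 CPM in control and 39.3 CPM in case Gfpt2-high cells, a log2 ratio of -1.97 beside -1.14 in Gfpt2-low cells. Apod, a lipid-binding apolipoprotein, was at 1099 and 320.8 CPM, Cebpd, a factor of the acute phase, at 724.8 and 212.1 CPM and Ntrk2, the receptor of BDNF, at 458.2 and 141.6 CPM. Log2 ratios of Apod, Cebpd and Ntrk2 were -1.78, -1.77 and -1.69 in Gfpt2-high cells. In Gfpt2-low cells these genes were lower in the case library too, at -2.14, -1.30 and -1.03. Procr went from 1086 to 382.0 CPM in Gfpt2-high and from 242.9 to 183.8 CPM in Gfpt2-low cells. The remaining named genes were AABR07048474.1 (-1.72), RT1-CE10 (-1.69), Mup4 (-1.62), RT1-A1 (-1.58) and RGD1305645 (-1.52), of which the RT1 and Mup genes belong to families with near-identical copies and are uncertain. In smooth muscle cells RT1-CE10 (88.0 and 30.9 CPM), RT1-A1 (88.1 and 39.8), RGD1305645 (35.0 and 18.9) and Cebpd (54.5 and 36.8) were lower in the case library as well, and Procr was at 28.2 and 28.3 CPM. Within the pathways above, Has2 (0.24) and Ugdh (-0.28) differed little between the libraries, whereas Uap1 was lower in case cells of both classes (-1.13 and -0.95), as were Cxcl1 (-1.02 and -1.02) and Tnfaip6 (-0.72 and -0.88). Fmod, a collagen-binding proteoglycan, was lower in case Gfpt2-high cells (-1.37) and not in Gfpt2-low cells (0.28), and the difference between the classes was not tested.

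**Figure D5:**
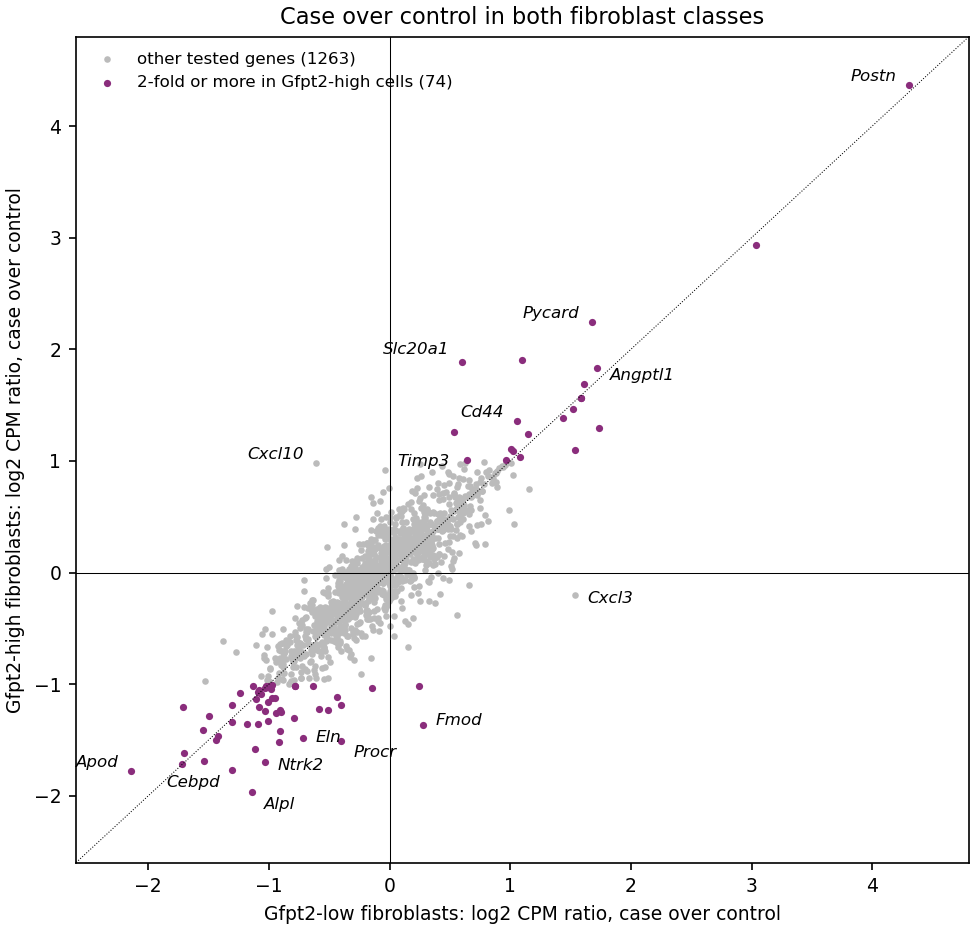
Log2 CPM ratio of case over control in Gfpt2-low (x) and Gfpt2-high (y) fibroblasts for 1337 genes, with the 74 genes past 2-fold in Gfpt2-high cells coloured and the dotted line marking equal ratios. Postn lies at upper right at 4.31 and 4.37, and Slc20a1, Procr, Eln and Fmod lie off the line.

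The other lists gave few genes past 2-fold in both libraries in the first comparison. Beside the 5.24% higher and 3.81% lower of all tested genes, 1 gene of a list is no result about that list. Of 7 tested genes of glucose entry and glycolysis Ldha alone was higher by 2-fold or more in both libraries (log2 1.53 and 1.09), and 1, Eno1, passed the level filter only through its Gfpt2-high cells. None passed among 5 tested genes of the IGF axis, 4 of JAK-STAT feedback and 2 of the cell cycle. Irf1 was the lower of 5 tested interferon genes, Cd55, tested only through its Gfpt2-high cells, the higher of 5 complement genes, and Dkk3 the lower of 5 Wnt and BMP antagonists. Of 9 tested elastic fibre genes Eln alone passed 2-fold, and of 10 tested proteases and inhibitors Adamts4 alone. Of 9 tested genes of the unfolded protein and integrated stress responses Trib3 and Chac1 passed, while the chaperone Hspa5 had log2 ratios of -0.16 and -0.05.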

How the data were processed

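Cell Ranger 3.1.0 wrote the deposited matrix, which holds raw UMI counts for both libraries. The submitters' processing notes name Rnor_6.0 and Seurat. Barcodes carry suffixes that were matched to the groups by the numbers of barcodes the study states before quality control, 3321 and 5656. UMIs were summed per library and class and scaled to CPM without Gfpt2. Ratios carry exact conditional binomial 95% intervals, sums exact Poisson and shares Clopper-Pearson intervals, all for counting error only. The rule for named genes took the 15 most different each way between classes, by the smaller ratio of the libraries, the 10 most different each way between case and control, and list members; others named were chosen after their values were seen. Members, lists and motifs were chosen with earlier results of these data known. The contrast script recovered most planted changes, all larger than the 2-fold limit, in simulated class sums. Those sums had no spread between cells and no choice of cells by Gfpt2, so this checked the arithmetic only. Scrublet called 12 control and 3 case cells, too few to have worked, none of them a fibroblast, so doublets stayed in. Python 3.11.15, scanpy 1.11.5, edgeR 4.0.16 and DESeq2 1.42.0 were used, the last 2 for scaling factors only. Alternatives covered thresholds, depth, scaling, gene filters and cell weights.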

Additional observations from a re-analysis of the deposited data

Results flagged for a closer look

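Slc20a1 moved in opposite directions between the libraries: its log2 ratio of Gfpt2-high over Gfpt2-low cells was -0.51 in the control and 0.77 in the case library. Timp3, an inhibitor of metalloproteinases, did the same, at -0.58 and 0.37. Cxcl10 was higher in the case library among Gfpt2-high cells (log2 0.98) and lower among Gfpt2-low cells (-0.61), and Ifit2, an interferon-induced gene, was likewise at 0.44 and -0.38. Marcksl1 ran the other way, at -0.38 and 0.56. These 5 genes were picked out because both ratios were at least 1.25-fold with counting intervals off 0 and opposite signs, and with 1 library per group the difference was not tested.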

How the results depend on the processing

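No paired analysis was possible: the left and right arteries came from the same 2 rats but were pooled by side into 1 library each. The libraries have no replicate numbers and no result comes from a test. Gfpt2-high and Gfpt2-low cells, cut from the expression of the same cells, were compared within each library. The Gfpt2-high share of fibroblasts followed the thresholds: 24.4% of control and 26.1% of case fibroblasts at a Gfpt2 threshold of 0.25%, 9.90% and 12.6% at 0.5%, and among cells with stress genes below 2% of UMIs (chosen after seeing the data) 44.7% and 47.9%. With at least 4000 UMIs it was 18.6% and 24.1%, and with the 4 fibroblast genes at 3% or more 15.7% and 14.9%. Among the low-stress cells 21 genes were 2-fold higher and 25 lower in Gfpt2-high cells in both libraries, and 37 were higher in case than in control Gfpt2-high cells. Gadd45b there had a control log2 ratio of 0.15. Genes 2-fold higher and lower in both libraries and genes higher and lower in case Gfpt2-high cells numbered 366, 834, 1251 and 993 of 10911 genes with no level filter. With a filter of 50 CPM 109 were higher in both libraries, 55 higher and 89 lower in case cells, and with 200 CPM 46, 12 and 33. After thinning to 2000 UMIs 48 were higher in case cells. TMM scaling raised the Gfpt2-high over Gfpt2-low ratios by 0.13 in the control and 0.02 in the case library and DESeq2 size factors by 0.18 and 0.05 (log2), so negative values nearer 0 than that turn positive. These scalings, 1000 UMIs, 10% mitochondrial UMIs, equal weights for cells and removal of the 5% highest doublet scores (chosen after seeing the data) left every count of genes within 1.5 times. That covers counts only. Of 80 values of named genes, 49 were labelled as moved at a Gfpt2 threshold of 0.5% and 44 after thinning. With the 4 fibroblast genes at 3% or more 36 were, with equal weights for cells 25, and among low-stress cells 57. The depth behind a class sum sets the counting intervals, which cannot show the spread between animals.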
